A study of Drosophila melanogaster with 4 samples.

Results

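The vacuolar H+-ATPase genes described here are those whose FlyBase symbol begins with Vha followed by a digit, V or A. The annotation held 26 such genes, and 22 of them matched the 17023 gene identifiers of the count tables. The identifiers of *Vha13*, *Vha26*, *Vha44* and *VhaAC39-1* had no match, and these 4 genes were not analysed here. Poly(A) RNA came from whole ovaries of *Drosophila melanogaster* dissected at 2 to 3 days after eclosion. Every fly carried UAS-Dcr2, which strengthens RNA interference, and nosGAL4, a driver active in germ cells. The first group, labelled *bam* RNAi, expressed a hairpin against *bam*, whose product drives the daughters of germline stem cells into differentiation. The second group, labelled *Nipped-A* RNAi, expressed a hairpin against *Nipped-A*, a scaffold of the Tip60 and SAGA acetyltransferase complexes. Each group had 2 libraries, called *bam*-labelled and *Nipped-A*-labelled below, and there was no untreated group, so every difference is one labelled group read against the other. The hairpins act in germ cells, while the ovaries also hold somatic cells in which neither hairpin is driven.

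The V-ATPase is a rotary proton pump that acidifies lysosomes, endosomes and secretory vesicles, and in some epithelia it also pumps protons across the plasma membrane. Its cytoplasmic V1 sector hydrolyses ATP through subunits A and B, and its membrane V0 sector moves protons through a ring of c subunits beside the large subunit a. *Drosophila* has several genes for many of the subunits. Some are used in most tissues, and others are known mainly from testis, neurons or parts of the gut. From that background knowledge, not from these data, 7 of the matched genes were placed among the widely expressed subunits and 15 among the restricted isoforms.

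Total counts were 33844807 and 23866988 for *bam* RNAi 1 and 2 and 47825006 and 21193517 for *Nipped-A* RNAi 1 and 2. The knockdown check was mixed. *bam* had 4.70 and 6.52 CPM (counts relative to the scaled library size) in the *bam*-labelled libraries, and 29.03 and 16.9 CPM in the *Nipped-A*-labelled ones. *Nipped-A* had 287 and 247 CPM in the *bam*-labelled libraries but 430.1 and 439 CPM in those labelled as its own knockdown. No reduction against the *bam*-labelled libraries was thus seen. With no untreated group, and with somatic cells in the tissue, these values do not show whether the hairpin lowered *Nipped-A* in germ cells. Directions below therefore refer to library labels, not to a reduced *Nipped-A* transcript. The ovarian identity was present in all 4 libraries: the 7 matched oocyte, germline and yolk markers summed to 4736 and 5000.1 CPM in the *bam*-labelled libraries and to 10285 and 9914 CPM in the others. All 7 rose, with *osk* 8.32-fold, *otu* 4.01-fold and *orb* 3.56-fold higher in the *Nipped-A*-labelled libraries, and the sums are mostly yolk protein transcripts (*Yp1* and *Yp2*). In bulk ovaries, fewer cells of a type and less RNA per cell cannot be told apart.

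Of the 22 matched V-ATPase genes, 14 had enough counts to be tested. Against the *bam*-labelled libraries, 2 rose in the *Nipped-A*-labelled libraries (*Vha100-4* and *Vha100-5*), 3 fell (*Vha14-1*, *Vha36-3* and *Vha68-1*) and 9 did not pass the test, so 5 of 14 were called beside 19.6% of all tested genes (edgeR quasi-likelihood test, Benjamini-Hochberg adjusted over 10245 genes, threshold 0.05). Over all tested genes 11.3% rose and 8.31% fell. The log2 fold change was negative for 12 of the 14, while it was negative for 50.1% of all tested genes. Their median was −0.40, beside −0.001 over all tested genes. The groups did not overlap at 13 of the 14, beside 68.9% of all tested genes. Without *bam* RNAi 1 or 2 edgeR called 0 members and 0 of all genes, while 2373 and 1837 genes had an unadjusted p under 0.05, and DESeq2 called *Vha100-4*, *Vha100-5* and *Vha68-1* among 1572 and 1202 genes. The filter removed genes with few counts, so the 8 untested members, all restricted isoforms, are described separately.

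**Figure D1:**
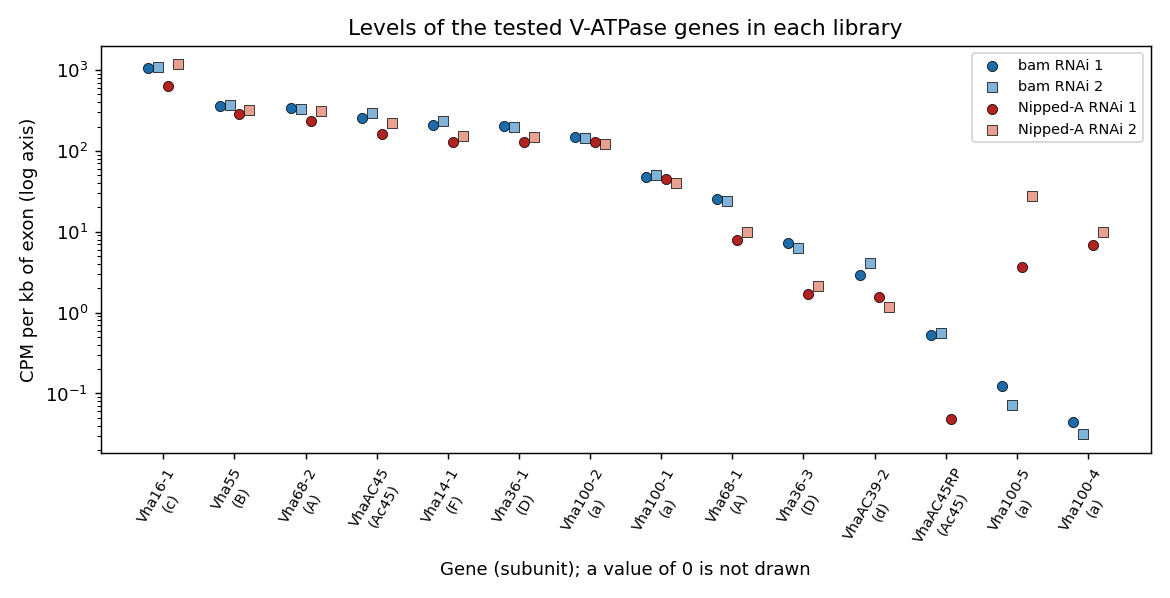
Level of each tested V-ATPase gene in each library, in CPM per kb of exon on a log axis, ordered by the mean of the *bam*-labelled libraries; the subunit is in brackets and a value of 0 is not drawn. The widely expressed subunits lie between 122 and 1176 CPM per kb in all 4 libraries, and *Vha100-5* and *Vha100-4* lie far higher in the *Nipped-A*-labelled libraries.

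The widely expressed subunits of the V1 sector were all lower in the *Nipped-A*-labelled libraries, but 1 of the 4 passed the test. Among all 7 widely expressed subunits that was the only call, or 14.3%, beside 19.6% of all tested genes. *Vha55* encodes the B subunit, which forms the catalytic head together with A. It had 995 and 1029.9 CPM in the *bam*-labelled libraries and 790.2 and 906 CPM in the others, with a log2 fold change of −0.26 ± 0.13 (SE; edgeR quasi-likelihood, Benjamini-Hochberg adjusted p = 0.221). *Vha68-2*, the main gene for the catalytic A subunit, had 926 and 923 CPM against 646 and 869 CPM (−0.29 ± 0.18, edgeR adjusted p = 0.283). In both genes the lower group stayed below the other, and *Nipped-A* RNAi 2 lay nearer to the *bam* RNAi level than *Nipped-A* RNAi 1 did.

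*Vha36-1* encodes subunit D of the central stalk that turns inside the head. Its levels were 215 and 209.9 CPM against 136 and 160.3 CPM, a log2 fold change of −0.52 ± 0.14 just outside the threshold (edgeR adjusted p = 0.0569). Under DESeq2 it was called, at −0.48 (Benjamini-Hochberg adjusted p = 0.00922). *Vha14-1*, for the stalk subunit F, fell 1.58-fold. It had 140.0 and 157 CPM in the *bam*-labelled libraries and 85.7 and 102 CPM in the *Nipped-A*-labelled ones (−0.66 ± 0.15, edgeR adjusted p = 0.0404). Log2 fold changes in these libraries rose with exon length (Spearman 0.243 across 10032 genes, which are not independent replicates), and *Vha14-1* is the shortest tested member at 0.659 kb of exon. After removal of that trend it had a value of −0.19 (edgeR adjusted p = 0.299), so the call did not hold. *Vha36-1* then had −0.20 (edgeR adjusted p = 0.351).

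In the membrane sector none of the widely expressed subunits passed the test. *Vha16-1*, the c subunit that lines the proton path, was the most abundant member: it took 48.6% and 47.8% of the CPM of all members in the *bam*-labelled libraries and 43.0% and 53.4% in the others. Its values were 3309 and 3322 CPM against 1966 and 3620 CPM, so the groups overlapped. The *Nipped-A* RNAi libraries lay on either side of the *bam* RNAi level, and the log2 fold change of −0.25 ± 0.29 (edgeR adjusted p = 0.572) depends on which of them is used. It was 0.12 (edgeR adjusted p = 0.407) without *Nipped-A* RNAi 1 and −0.69 (edgeR adjusted p = 0.000521) without *Nipped-A* RNAi 2. *Vha100-2*, a widely used a subunit, had 475 and 463 CPM against 419 and 392 CPM (−0.21 ± 0.12, edgeR adjusted p = 0.261). *VhaAC45*, an accessory subunit that helps the V0 sector to assemble, had 515 and 595 CPM against 324 and 453 CPM (−0.52 ± 0.20, edgeR adjusted p = 0.126). The groups of *Vha100-2* and of *VhaAC45* did not overlap.

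All 7 widely expressed subunits thus had a negative log2 fold change, from −0.66 to −0.21 with a median of −0.29. The interval of *Vha100-2*, the smallest of these differences, ran from −0.52 to 0.10. Of the 7, 6 were higher in *Nipped-A* RNAi 2 than in *Nipped-A* RNAi 1, with a median log2 difference of 0.25. Over all tested genes 5027 of 10245 were higher there, with a median of −0.01. The median of the class was −0.27 without *Nipped-A* RNAi 1 and −0.57 without *Nipped-A* RNAi 2.

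Tubule markers also differed between *Nipped-A* RNAi 1 and 2. The 8 tubule markers, from the excretory organ whose cells are known for abundant V-ATPase, summed to 355 and 370.5 CPM in the *bam*-labelled libraries and to 247 and 579 CPM in *Nipped-A* RNAi 1 and 2. Much of each sum was *Drip*, with 243 and 259 CPM in the *bam*-labelled libraries and 156 and 232 CPM in the others. All 7 tubule markers tested were higher in *Nipped-A* RNAi 2 than in 1, with a median log2 difference of 2.03. Urate oxidase, *Uro*, named here after its values were seen, had 73.8, 74.2, 12.1 and 179.9 CPM in the 4 libraries in the order *bam* RNAi 1 and 2, *Nipped-A* RNAi 1 and 2. *Irk1* was the tubule marker that was called (1.84 ± 0.25, edgeR adjusted p = 0.0155). That is 1 of 7 tested, or 14.3%, beside 19.6% of all tested genes. Of the 7, 5 had positive log2 fold changes and 2 negative ones: *tio* at −1.58 (edgeR adjusted p = 0.0641) and *Drip* at −0.37 (edgeR adjusted p = 0.258). Muscle genes fell in the same contrast, 7 of 9 of them, with summed levels of 26877 and 26703 CPM against 8033 and 10751 CPM. The part of tubule or muscle tissue in the V-ATPase levels was not tested.

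**Figure D2:**
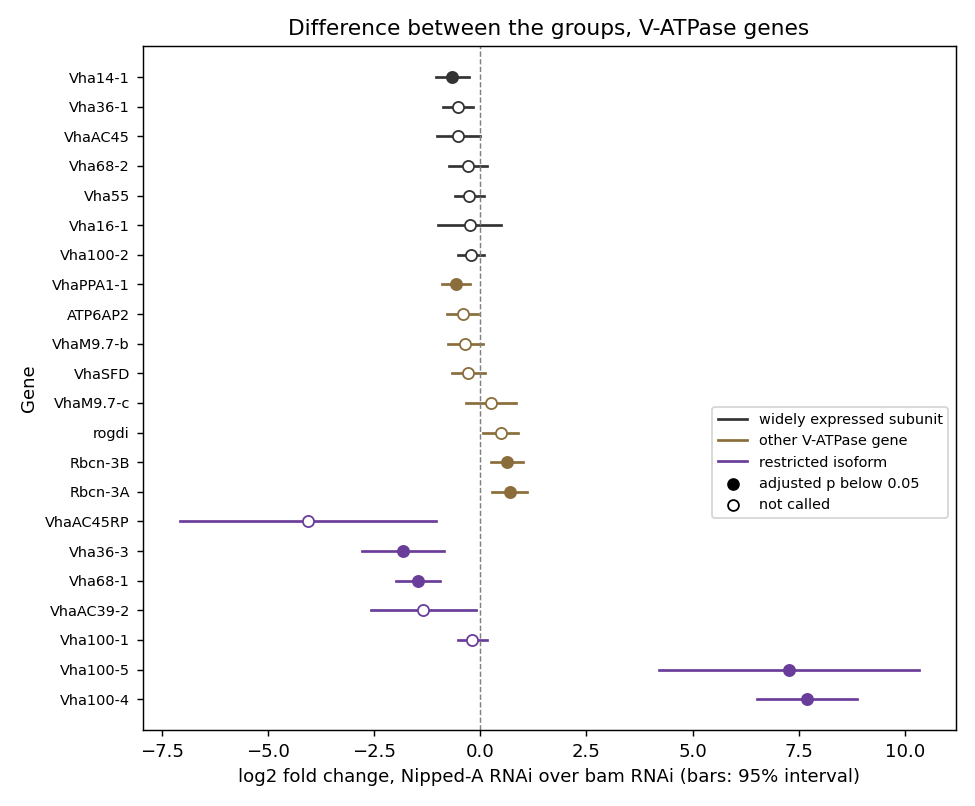
Log2 fold change of each tested V-ATPase gene, *Nipped-A*-labelled libraries over *bam*-labelled libraries, with its 95% interval; filled points passed the test. The widely expressed subunits sit between −0.66 and −0.21, and *Vha100-4* and *Vha100-5* stand at 7.70 and 7.26.

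The other V-ATPase genes, subunits and assembly factors outside the symbol rule, numbered 11, and 8 were tested. Of these *Rbcn-3A* and *Rbcn-3B* rose, *VhaPPA1-1* fell and 5 did not pass the test (background as above). The median was −0.01. *VhaPPA1-1* encodes c″, a further subunit of the proton-conducting ring. It had 290.1 and 314 CPM against 192 and 215 CPM (−0.57 ± 0.13, edgeR adjusted p = 0.0419), but −0.34 (edgeR adjusted p = 0.141) with the length trend removed. *VhaSFD*, for subunit H, had −0.28 ± 0.15 (edgeR adjusted p = 0.234), with 349 and 320 CPM against 249.8 and 302 CPM. *VhaM9.7-b*, for the small subunit e, had −0.35 ± 0.16 (edgeR adjusted p = 0.175), with 168 and 195 CPM against 128 and 156 CPM. The accessory gene *ATP6AP2*, the fly prorenin receptor, had −0.42 ± 0.14 (edgeR adjusted p = 0.0980), with 331 and 342 CPM against 229 and 275 CPM. *VhaPPA1-1*, *VhaSFD*, *VhaM9.7-b* and *ATP6AP2* thus had the sign of the 7 widely expressed subunits. These 11 together had a median of −0.35, with −0.29 over 5 V1 genes and −0.38 over 6 V0 and accessory genes. The 4 tested genes of the list with positive values are not among the 11, so the shared sign of the 11 follows from the choice.

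The assembly factors went the other way. *Rbcn-3A* and *Rbcn-3B* encode parts of the complex that joins V1 to V0, and *rogdi* is related to a further part of it. *Rbcn-3A* had 203 and 178 CPM in the *bam*-labelled libraries and 342 and 274 CPM in the others (0.70 ± 0.17, edgeR adjusted p = 0.0424). *Rbcn-3B* had 82.8 and 70.3 CPM against 118 and 120.5 CPM (0.64 ± 0.15, edgeR adjusted p = 0.0402). *rogdi* had 92.5 and 75.6 CPM against 122 and 112 CPM (0.48 ± 0.16, edgeR adjusted p = 0.0900). Both calls ended with the length trend removed, at 0.29 (edgeR adjusted p = 0.314) for *Rbcn-3A* and 0.31 (edgeR adjusted p = 0.144) for *Rbcn-3B*, and under upper-quartile scaling. *VhaM9.7-c*, a second e isoform, had 29.4 and 37.5 CPM against 45.1 and 35.0 CPM (0.26 ± 0.23, edgeR adjusted p = 0.451), with overlapping groups.

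The log2 fold changes of the restricted isoforms spanned a wider range than those of the widely expressed subunits. Of 15 matched genes 7 were tested, and their log2 fold changes ran from −4.06 to 7.70 with a median of −1.34. Both ends are genes near 0 in 1 group. *VhaAC45RP* had 4 and 0 counts in the *Nipped-A*-labelled libraries, and *Vha100-4* had 4 and 2 in the *bam*-labelled ones. These genes and *Vha100-5* passed the filter through the group where they are high, so the range follows in part from the filter. The 15 restricted isoforms took 3.50% and 3.53% of the CPM of all members in the *bam*-labelled libraries and 4.48% and 4.02% in the *Nipped-A*-labelled ones. *Vha68-1*, a second gene for the catalytic A subunit, fell 2.76-fold. It had 67.3 and 65.0 CPM against 21.1 and 26.8 CPM, with each group tight and well apart (−1.47 ± 0.20, edgeR adjusted p = 0.0155). *Vha36-3*, a second gene for the stalk subunit D, fell 3.51-fold from 9.35 and 8.14 CPM to 2.22 and 2.76 CPM (−1.81 ± 0.38, edgeR adjusted p = 0.0328). With the length trend removed *Vha36-3* had −1.56 (edgeR adjusted p = 0.0528), which ended its call, and *Vha68-1* had −1.51 (edgeR adjusted p = 0.0204). Blood cell and fat body genes fell in the same contrast. Of 5 hemocyte markers 3 fell (*NimC1*, *Col4a1* and *vkg*), 1 rose (*srp*) and *Hml* was not called (−0.54, edgeR adjusted p = 0.0718). Their summed level was 5778 and 5014 CPM against 1894 and 2052 CPM, mostly from the collagen genes *Col4a1* and *vkg*. *NimC1*, a phagocytosis receptor gene, fell 3.45-fold (edgeR adjusted p = 0.00996). Of 6 fat body markers 4 fell and 1 rose (*apolpp*), and the larval serum protein gene *Lsp1gamma* fell 38.5-fold (edgeR adjusted p = 0.00620), while the summed level, 880 and 810.04 CPM against 1666 and 1465 CPM, was higher. The part of these tissues in the levels of *Vha68-1* and *Vha36-3* was not tested.

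A pair of weakly expressed isoforms had lower values too, without passing the test. *VhaAC39-2*, for subunit d of the V0 sector, had 3.59 and 5.03 CPM against 1.93 and 1.45 CPM (−1.34 ± 0.49, edgeR adjusted p = 0.111). *VhaAC45RP*, related to the accessory subunit gene, had 29 and 22 counts against 4 and 0 counts. Its count ratio was 15.9-fold higher in the *bam*-labelled libraries, with an interval of 5.83 to 60.4 that covers counting error only (edgeR adjusted p = 0.0688 for the fitted −4.06 ± 1.20). The fitted value was −3.36 without *Nipped-A* RNAi 2 and −7.57 without *Nipped-A* RNAi 1, where the remaining library is at 0 and the value depends on the prior count. The testis markers, given since several of these isoforms are known from testis, were sparse. Of 11 markers 4 were tested, 1 fell (*aly*, 4.01-fold, edgeR adjusted p = 0.0404) and 0 rose. That is 1 call in 4 tested, beside 19.6% of all tested genes, and 4 genes are too few to tell these rates apart. The 11 markers summed to 25.5 and 20.2 CPM against 13.2 and 13.6 CPM, and *Mst98Ca* was at 0 in every library. Their part in the levels of *VhaAC39-2* and *VhaAC45RP* was not tested.

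The 4 tested a subunit genes gave the widest contrast. *Vha100-1*, known in flies for its role in synaptic vesicles of neurons, was the second a isoform of these ovaries, at 156 and 165 CPM against 149.5 and 132 CPM (−0.18 ± 0.13, edgeR adjusted p = 0.356, interval −0.53 to 0.16). The 6 neuron markers summed to 54.0, 44.0, 39.0 and 62.2 CPM in the same library order, and *VGlut*, a glutamate transporter gene, was the 1 of 5 tested that fell, from 4.67 and 4.90 CPM to 0.142 and 0.0937 CPM (−5.24 ± 0.61, edgeR adjusted p = 0.0130). Most of that sum was *elav*, which encodes an RNA-binding protein of neurons and had 34.0 to 53.7 CPM. The synaptic markers *nSyb*, *brp* and *Syt1* had at most 4.59 CPM in any library. They were not called, with log2 fold changes of 1.37, 1.01 and −1.20. The median of the neuron list was 0.11, and its 1 call in 5 is 20.0%, near the 19.6% over all tested genes. The part of neurons in the level of *Vha100-1* was not tested.

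*Vha100-4*, which is needed for acid secretion by the copper cells of the midgut, had 4 and 2 counts in the *bam*-labelled libraries and 909 and 573 in the *Nipped-A*-labelled ones. Its levels were 0.121 and 0.0852 CPM against 18.5 and 26.8 CPM, with the groups far apart. The fitted log2 fold change was 7.70 ± 0.47 (edgeR adjusted p = 0.00620), and the ratio of the summed counts was 199 with an interval of 91.0 to 542 for counting error only. *Vha100-5* had 12 and 5 counts against 529 and 1734, or 0.362 and 0.213 CPM against 10.8 and 81.2 CPM. It rose by 7.26 ± 1.21 (edgeR adjusted p = 0.0208), but the *Nipped-A* RNAi libraries differed by 2.92 on the log2 scale, with library 2 the higher. Its log2 fold change was 5.24 without *Nipped-A* RNAi 2 and 8.06 without *Nipped-A* RNAi 1, and its call ended under robust moderation (edgeR adjusted p = 0.0849) and limma-voom (adjusted p = 0.268).

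**Figure D3:**
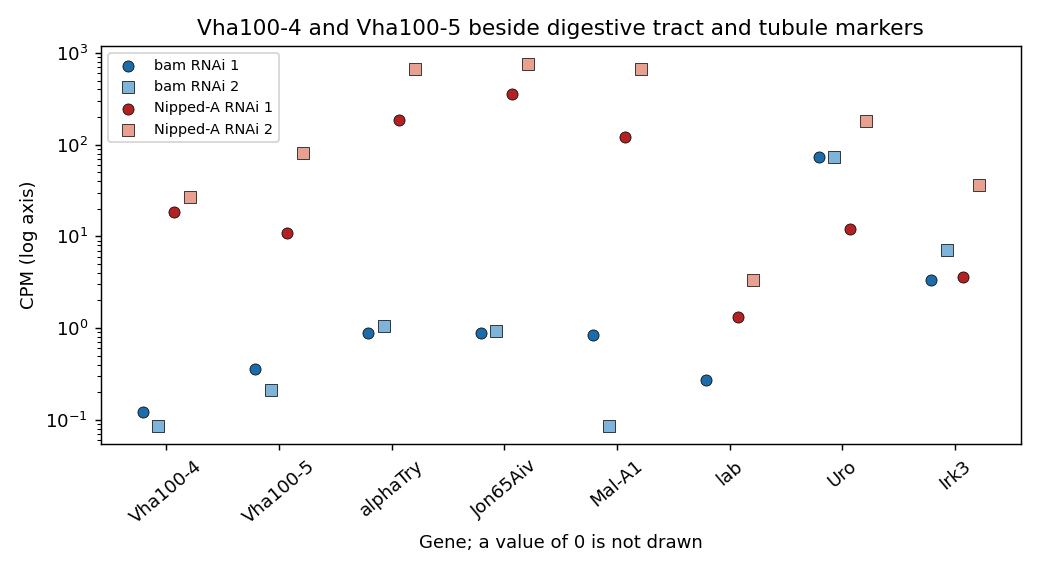
CPM on a log axis of *Vha100-4*, *Vha100-5*, 4 digestive tract markers and 2 tubule markers in each library; a value of 0 is not drawn. *Vha100-4* lies at 18.5 and 26.8 CPM in the *Nipped-A*-labelled libraries, while *Vha100-5*, *alphaTry*, *Jon65Aiv*, *Mal-A1*, *lab*, *Uro* and *Irk3* are all higher in *Nipped-A* RNAi 2 than in *Nipped-A* RNAi 1.

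Digestive tract markers rose in the same libraries. Of 8 tested, 7 rose and 0 fell, with a median log2 fold change of 8.67, and the list summed to 4.88 and 4.30 CPM in the *bam*-labelled libraries and to 969 and 3261 CPM in the others. All 8 were higher in *Nipped-A* RNAi 2 than in 1, with a median log2 difference of 1.88. *Vha100-4* was higher there by 0.54. The defining copper cell gene of the list, *lab*, a homeobox factor, had 0.271 and 0 CPM against 1.32 and 3.33 CPM (3.96 ± 1.34, edgeR adjusted p = 0.0929). Whether *Vha100-4* and *Vha100-5* transcripts came from gut carried over in dissection was not tested.

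The make-up of each subunit was compared as shares of per-length level (CPM per kb of exon), as a description with no test. *Vha68-1* made up 6.97% and 6.76% of the A subunit transcripts in the *bam*-labelled libraries and 3.25% and 3.08% in the others. Per kb of exon, *Vha68-2* was 13.3 and 13.8 times as high as *Vha68-1* in the first group and 29.7 and 31.4 times in the second. *Vha36-3* made up 3.45% and 3.08% of the D subunit against 1.32% and 1.40%. Among a subunits *Vha100-2* held 75.6% and 74.2% against 69.9% and 61.0%, and *Vha100-1* held 24.3% and 25.8% against 24.5% and 20.2%. *Vha100-4* went from 0.0227% and 0.0161% to 3.65% and 4.93%, and *Vha100-5* from 0.0636% and 0.0377% to 1.98% and 13.9%. The ratio of *Vha100-2* to *Vha100-1* stayed between 2.86 and 3.11 in all 4 libraries. Subunits F and c each rested on 1 gene, with *Vha14-1* and *Vha16-1* at 99.9% or more of their subunit in every library.

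**Figure D4:**
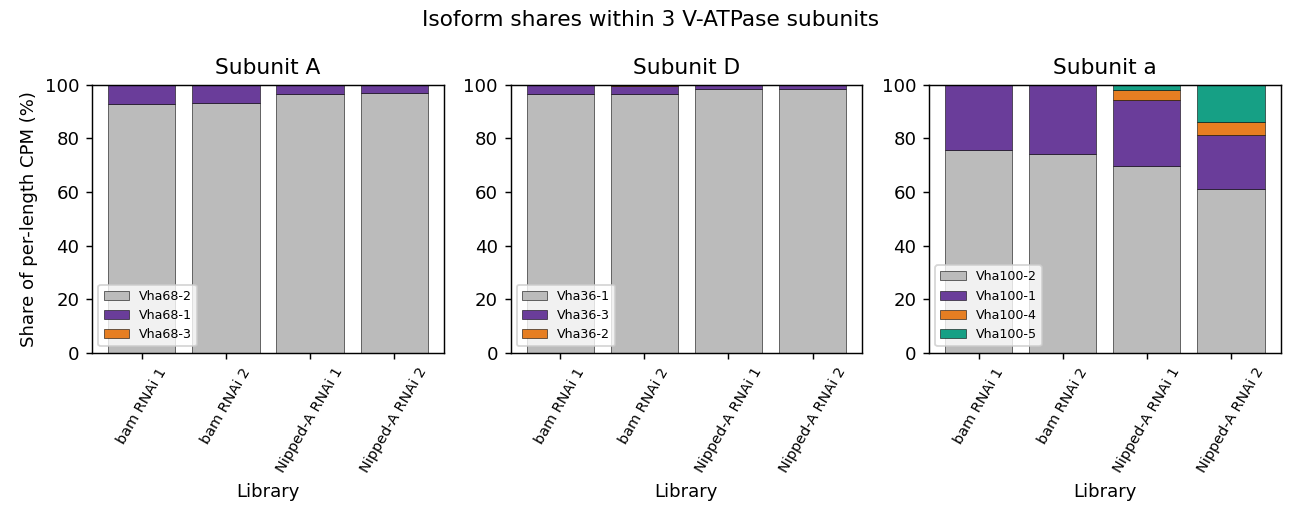
Share of each isoform within subunits A, D and a in each library, in percent of the summed CPM per kb of exon; each bar adds to the whole subunit. The minor isoforms of A and D are smaller in the *Nipped-A*-labelled libraries, and *Vha100-4* and *Vha100-5* become visible there.

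Ordered by level per kb of exon in the *bam*-labelled libraries, *Vha16-1* came first at 1077, followed by *Vha55* at 363, *Vha68-2* at 335, *VhaAC45* at 276, *Vha14-1* at 225, *Vha36-1* at 199.7 and *Vha100-2* at 146 CPM per kb. *Vha100-1* followed at 48.7 and *Vha68-1* at 24.7 CPM per kb, and the other 5 tested members had means below 7 CPM per kb. No neighbours in this order overlapped between the libraries of that group. In the *Nipped-A*-labelled libraries the first 8 places were the same, but *Vha55* and *Vha68-2* overlapped, as did *Vha14-1* with *Vha36-1* and *Vha36-1* with *Vha100-2*. *Vha100-5* and *Vha100-4* moved there from the last places to ninth and eleventh, at 15.8 and 8.31 CPM per kb, and *Vha68-1* lay between them at 8.95 with overlapping libraries on both sides.

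The remaining 8 restricted isoforms were at or near 0. *Vha16-2* and *Vha16-3*, for subunit c, and *Vha100-3*, for subunit a, had 0 counts in all 4 libraries. For *Vha16-3* and *Vha100-3* this allows at most 0.0611 to 0.141 CPM per library (3 counts, counting error only). *Vha16-2* shares 503 of its 595 exonic bases with an antisense RNA gene. Reads there may have been left uncounted, as the strand setting is not given, so its 0 sets no such limit. *Vha14-2* and *Vha16-4* had 1 and 2 counts over all libraries, each in a single library labelled *Nipped-A* RNAi. *Vha16-5* had 20, 0, 7 and 1 counts, *Vha36-2* had 5, 17, 10 and 3, and *Vha68-3* had 3, 8, 12 and 16, in the order given above for the libraries. None of them reached 1 CPM in any library.

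Genes for isoforms of 1 subunit lie near each other at several sites in dm6. *Vha100-4* (chromosome 3R, 18386841 to 18389805, minus strand) and *Vha100-2* (18390323 to 18399169, minus strand) are 517 bases apart, with log2 fold changes of 7.70 and −0.21. *Vha100-4* shares 47 exonic bases with *cona* on the other strand. *Vha68-2* (chromosome 2L, 12974322 to 12978607, plus strand) ends 178 bases before *Vha68-3* (12978786 to 12981293, plus strand), which had at most 0.750 CPM, and *Vha68-1* (13000770 to 13004107, minus strand) lies 19476 bases further on. *Vha16-3* and *Vha16-2* on chromosome 3L are 985 bases apart and both had 0 counts, which for *Vha16-2* is uncertain given its antisense overlap. *Vha100-5* (chromosome 2L, 11738948 to 11744524, plus strand) shares 527 exonic bases with an antisense RNA gene, so its counts are uncertain. *Vha36-3* lies on chromosome X (2579091 to 2580560, minus strand) and *Vha36-1* on chromosome 2R (15541435 to 15542498, plus strand).

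Lysosome and endosome genes, where the pump acts, were called about as often as other genes. Of 20 matched genes 19 were tested, 3 rose, 1 fell and 15 did not pass the test, with a median of 0.08. The 4 called are 21.1% of those tested, near the 19.6% over all tested genes. *Mitf*, the fly MiT/TFE factor known to act on V-ATPase genes, rose from 134 and 116 CPM to 321 and 262 CPM (1.22 ± 0.17, edgeR adjusted p = 0.0151), and had 0.99 (edgeR adjusted p = 0.0232) with the length trend removed. The chloride transporter gene *ClC-c* had 80.9 and 82.5 CPM against 140.2 and 138 CPM (0.77 ± 0.13, edgeR adjusted p = 0.0203), and the lysosomal efflux gene *spin* 113 and 113 CPM against 189.9 and 163 CPM (0.65 ± 0.14, edgeR adjusted p = 0.0338). Without the length trend *spin* lost its call, at 0.49 (edgeR adjusted p = 0.0609). *Hexo2*, for a hexosaminidase, fell from 123 and 120.1 CPM to 58.5 and 46.1 CPM (−1.22 ± 0.17, edgeR adjusted p = 0.0159). The protease genes *CtsL1*, *cathD*, *CtsB* and *CtsF* and the membrane protein gene *Lamp1* were not called, with log2 fold changes from −0.32 to 0.30. Any part of *Mitf* in the levels of the V-ATPase genes was not tested.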

How the data were processed

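RNA was measured in 4 ovary samples. The authors deposited raw counts per FlyBase gene, 1 table per library. The submitters' processing notes name HISAT2 2.1.0, featureCounts 1.6.0.4, edgeR 3.16.5 and the dm6 build, and the labels' protocols name a directional library kit. For the annotation, the strand setting and reads with several positions, the choice is not given in the sources used here, so genes with overlapping neighbours or close paralogs have uncertain counts. Symbols, positions and exon lengths came from Ensembl gene models on dm6 coordinates and were matched by gene identifier.

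Groups were compared with the edgeR 4.0.16 quasi-likelihood test (R 4.3.3, filterByExpr, TMM scaling, two-sided, Benjamini-Hochberg adjustment over all 10245 genes tested). Each standard error was derived from the log2 fold change and its F statistic. Intervals are at 95%. The steps were tested on simulated counts. The labels do not say whether libraries came from separate flies, so the p-values reflect only the spread among these 4 libraries, which may be technical. The correlation of log2 CPM was 0.972 and 0.954 within groups and 0.830 to 0.898 between them. Members and lists were chosen with earlier results of these data known. Named genes are all members, the targets, the other V-ATPase genes, and up to 4 called genes per list. *Uro*, *Irk3*, *tio*, *Drip*, *lab*, *Mal-A1*, *elav*, *nSyb*, *brp*, *Syt1*, *Hml*, *Mst98Ca* and the lysosomal genes not called were named after their values were seen. The list genes *Vps16A* and *vas* had no match. A planned promoter motif search was not run.

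Alternatives were other scalings, filters, DESeq2 1.42.0, limma-voom (limma 3.58.1), robust moderation, a replicate block, the removal of the length trend and each library left out.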

Additional observations from a re-analysis of the deposited data

How the results depend on the processing

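With 2 libraries per group the calls depend on single libraries. Without *bam* RNAi 1 or 2, edgeR called 0 genes (2373 and 1837 had an unadjusted p under 0.05), where DESeq2, added after seeing the data, called 1572 and 1202 genes, 2 members higher and 1 lower in each fit. Without *bam* RNAi 2 it called 0 other V-ATPase genes in either direction, with a restricted median of −1.03 and 0.65 for *Nipped-A*. Leaving out each library in edgeR gave 0 to 4215 genes called, 0 to 2 members called higher and 0 to 7 lower, 0 to 3 other V-ATPase genes higher and 0 to 4 lower, and 0 to 7 lysosome genes higher and 0 to 3 lower. The median ran from −0.57 to −0.27 for widely expressed subunits and from −1.44 to −1.02 for restricted isoforms, and the log2 fold change from 1.58 to 2.44 for *bam* and from 0.60 to 0.83 for *Nipped-A*. *Vha16-1* had 0.12 without *Nipped-A* RNAi 1 and −0.69 without *Nipped-A* RNAi 2. *Vha68-1* and *Vha100-4* were called in every fit with all 4 libraries.

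DESeq2 called 3521 genes and 2 other V-ATPase genes lower. limma-voom and robust moderation each called 1 member higher. With the length trend removed 1 member was lower, 0 other V-ATPase genes were called in either direction, the restricted median was −1.07 and *Nipped-A* had 0.28. Library size alone left 0 other V-ATPase genes lower. Upper-quartile scaling shifted the median of all genes to −0.21 and turned their split of 1153 higher and 851 lower to 853 and 1556. It gave class medians of −0.50 and −1.56, or −0.28 and −1.34 relative to that shift, 0.49 for *Nipped-A*, 0 other V-ATPase genes higher and 2 lower, and 2 lysosome genes lower. The restricted median was −0.78 with a 1 CPM filter and −0.72 with no filter, since other genes enter, and −0.76 with *Vha68-1* moved to the widely expressed class. Without division by length the share of *Vha68-1* was 6.68% in *bam* RNAi, and that of *Vha36-3* 3.94% in *bam* RNAi and 1.65% in *Nipped-A* RNAi. Same-numbered libraries did not deviate together (correlation −0.08), so the numbers do not pair them. A replicate block gave 1813 genes called, 2 members lower, and 1 other V-ATPase gene higher and 0 lower, and ended the calls of *Vha36-3* (edgeR adjusted p = 0.05001), *Rbcn-3B* (0.0553) and *VhaPPA1-1* (0.0547).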
